A study of Homo sapiens and Mus musculus with 13 samples.

Results

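The comparison sets 2 RNA-seq libraries whose files are named for OCI-AML3 with KPT against 2 whose files are named for OCI-AML3 with DMSO, 4 of the 13 libraries of the series. They were chosen and grouped by the names that the files carry. OCI-AML3 is an established human acute myeloid leukaemia line that carries NPM1c, a mutant nucleophosmin, with mutations in DNMT3A and NRAS per the labels. KPT is read here as KPT-330, another name of Selinexor in the labels.

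The sample records name the same files differently. The records of the KPT-named files describe the degron2 derivative of OCI-AML3, in which NPM1c can be degraded, after 24 h with 500 nM dTag-13. The records of the DMSO-named files describe OCI-AML3 after 24 h with 25 nM Selinexor. The 2 sets of 2 libraries are the same under both namings, so every test below has the same size and error under both. By the file names the comparison is Selinexor against its vehicle in a single line. By the records it is degron2 with dTag-13 against OCI-AML3 with Selinexor, where line and compound cannot be told apart. "KPT-named" and "DMSO-named" mark this throughout. In the results, "KPT", "dTag" and "DMSO" alone also stand for file names, unless the records are cited. "Higher" and "lower" are those of the KPT-named libraries unless dTag is named. Whether degron2 is a single clone is not given in the sources used here. The series' design text calls the libraries biological duplicates.

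As background, XPO1 is the export receptor that carries proteins with a nuclear export signal out of the nucleus. The mutation in NPM1c creates such a signal, so the mutant protein is found in the cytoplasm. Selinexor binds XPO1 and blocks this export, and cells with NPM1c are known for high expression of HOX genes and MEIS1. dTag-13 instead directs a tagged protein to the proteasome.

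The tables list 31848 clusters of UCSC transcripts by number and do not pair them with gene names. Only 7 clusters could be matched to a symbol through the RefSeq tables, and 4 of these hold the matched transcript alone. NPM1, XPO1, HOX genes and cell type markers could therefore not be read, and neither naming could be checked against the gene it concerns. What follows describes clusters by number, level, length and number of transcripts. Expected counts totalled 12277424 and 16456971 in the DMSO-named libraries and 17078166 and 17208221 in the KPT-named ones, so both KPT-named libraries were deeper. Fragment lengths were not measured here but derived from the gap between the deposited length and effective length of clusters (median over clusters). They came to 283.1 and 244.1 nt (DMSO-named) against 266.4 and 234.9 nt (KPT-named), ranges that overlap. With all libraries thinned to the smallest of the 8 human ones, 2832 clusters were called, against 3115 at full depth.

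The 13590 clusters tested took at least 99.94% of counts in each of the 4 libraries. Across them the KPT-named and DMSO-named libraries correlated at 0.959 to 0.963 (Pearson's r of log2 CPM, 4 pairs). CPM are counts scaled to the library total, which was adjusted by TMM factors for these correlations. Replicates correlated at 0.983 (DMSO-named) and 0.981 (KPT-named). The KPT-named libraries lay further from those named for the degron line, at 0.899 to 0.909 with DMSO and 0.903 to 0.915 with dTag. The DMSO-named libraries stood at 0.928 to 0.933 and 0.919 to 0.923 from the same libraries. All 4 libraries thus resembled each other more than they resembled any library named for the degron line. By the records, these 4 had a compound and those named for the degron line had DMSO. These values are descriptive, since clusters are not independent replicates.

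**Figure D1:**
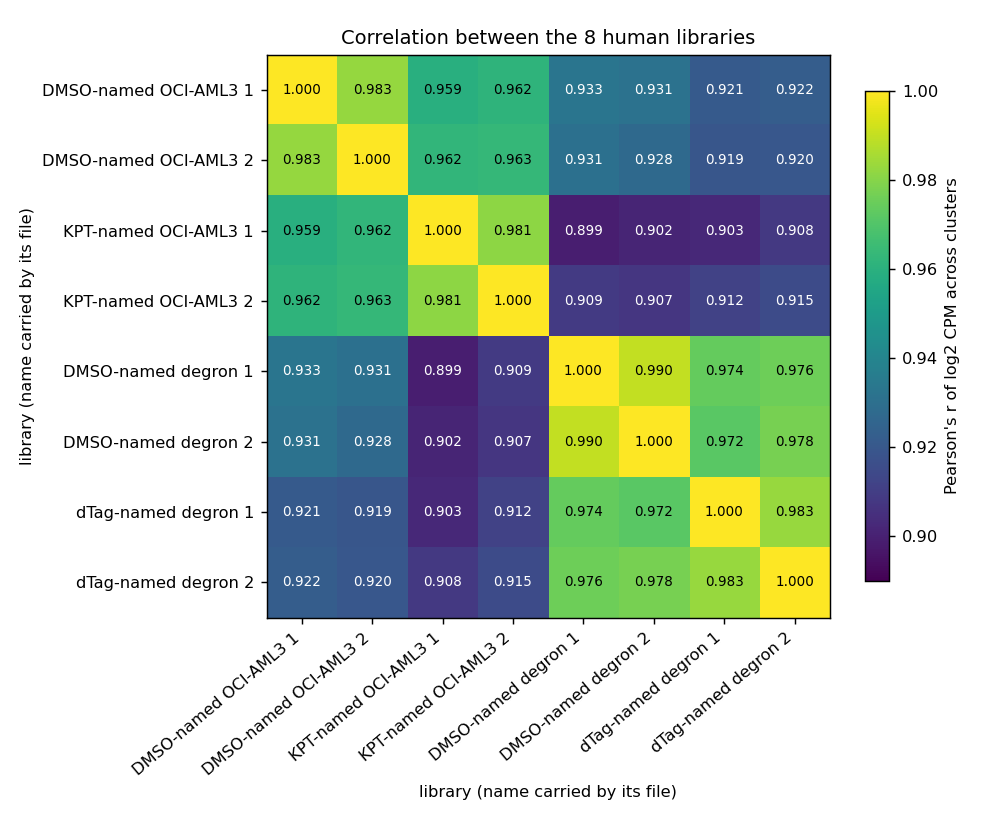
Pearson's r of log2 CPM across 13590 clusters between each pair of the 8 human libraries, labelled by the name each file carries and its replicate number. The KPT-named and DMSO-named OCI-AML3 libraries correlate at 0.959 to 0.963, and the lowest value of the plot, 0.899, is between a KPT-named library and a library named for the degron line with DMSO.

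Clusters that were without a count in one pair of libraries and had at least 20 counts in each of the other pair were rare in this comparison, with 3 counted in the KPT-named pair only and 1 in the DMSO-named pair only. By the same measure 27 clusters were counted in all 4 libraries named for OCI-AML3 and in none named for the degron line, and 1 showed the opposite. Between the lines as the records name them there were 0 in either direction. By the records, however, the 4 libraries named for OCI-AML3 all had a compound and those named for the degron line all had DMSO. The same 27 and 1 clusters thus also separate treated from DMSO libraries as the records name them.

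The KPT-named libraries differed from the DMSO-named ones in 3115 of 13590 clusters (22.9%) by edgeR's quasi-likelihood test at an adjusted p under 0.05. Of these, 1435 (10.6% of those tested) were higher and 1680 (12.4%) lower. The split turned to 1543 higher and 1438 lower when library totals were the only scaling. The median change among called clusters was 1.81-fold upward and 1.72-fold downward, and the median log2 fold change of all tested clusters was 0.02. Without regard to the test, both KPT-named libraries lay above both DMSO-named ones in 4003 clusters (29.5%) and below in 3856 (28.4%). With 2 libraries a group, such separation is also frequent in unchanged clusters, so these counts do not say how many changed.

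More of the large changes were upward than downward. At least 2-fold changes numbered 575 higher and 482 lower, at least 4-fold changes 115 and 57, and at least 16-fold changes 14 and 3. These largest changes were mainly of scarce transcripts. In 12 of the 14 clusters raised at least 16-fold the DMSO-named mean was under 1 CPM, and in all 3 lowered that much the KPT-named mean was. The 14 reached KPT-named means of 0.350 to 135 CPM, with a median of 3.72 CPM. For most of them the fitted fold rests on few counts in the lower group.

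**Figure D2:**
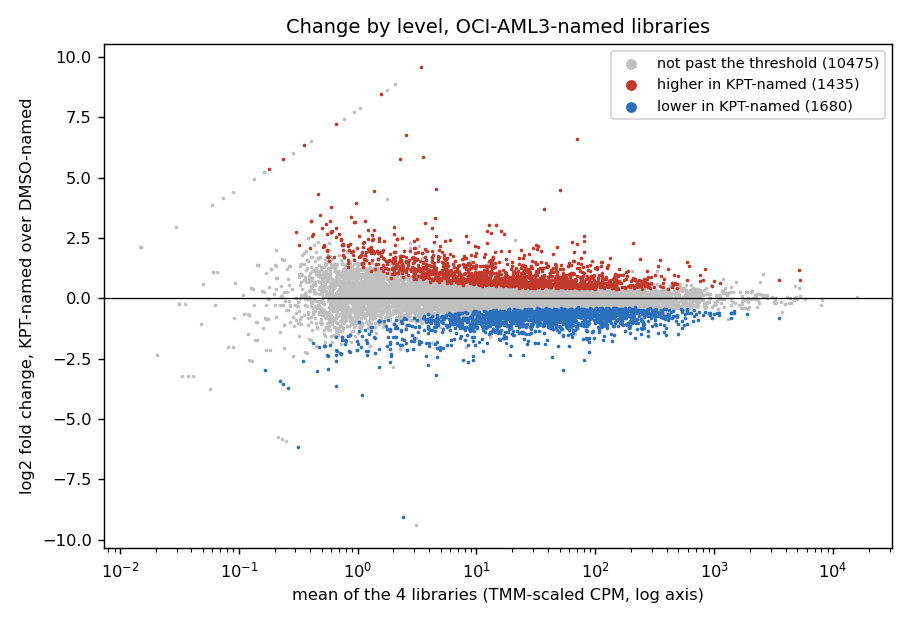
Log2 fold change of each tested cluster, KPT-named over DMSO-named OCI-AML3 libraries, against its mean level over the 4 libraries in TMM-scaled CPM on a log axis. Red points are the 1435 clusters higher and blue points the 1680 lower past the threshold, grey points the others, and the rising line of points at the upper left is of clusters with no count in the DMSO-named libraries.

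The spread between replicates gives a scale for these changes. In the 10309 clusters whose mean reached 5 CPM, the absolute log2 difference between the DMSO-named replicates had a median of 0.196 and a 95th percentile of 0.611. The KPT-named replicates gave 0.210 and 0.624. Between the group means the median was 0.286 and the 95th percentile 1.06. A difference of over 2-fold was seen in 5.90% of clusters between group means and in 0.669% and 0.582% between the DMSO-named and KPT-named replicates. Means of 2 libraries vary less than single libraries, so the 2 kinds of difference have an unlike basis.

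Cluster 22885 (1 transcript, uc003kjz.2, of 4161 nt) was the largest rise where the mean reached 5 CPM, with 1 CPM or more in each library of the lower group. Scarcer clusters with larger fitted changes are those counted above. It was at 1.303 and 1.398 CPM in the DMSO-named libraries and at 112.5 and 158.1 CPM in the KPT-named ones. It had 1921 and 2720 counts in the KPT-named libraries against 16 and 23 in the DMSO-named ones. Named clusters were picked among those called and without overlap between the groups, so their separation is no further support. The change was 95.9-fold (log2 fold change 6.58, SE 0.255, adjusted p = 1.89e-07, edgeR). Per length, its level went from 0.505 ± 0.00707 to 48.46 ± 8.75 TPM, a level scaled to length (SD, n = 2).

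Cluster 14452 (5 transcripts, uc002mpe.4 to uc002mpi.3) was the other large rise, from 6.027 and 2.491 CPM to 100.1 and 89.26 CPM. The DMSO-named libraries differed by more than 2-fold from each other. The change was 22.3-fold (log2 fold change 4.48, SE 0.279, adjusted p = 5.63e-06, edgeR). Its log2 fold change was 5.14 without DMSO-named replicate 1, the only left-out library that moved the fold itself (not its log2) by over 1.5 times. Per length, the level rose from 2.395 ± 1.77 to 44.51 ± 4.2 TPM (SD, n = 2).

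Cluster 23472 (2 transcripts, uc003mcn.1 and uc003mco.1) was the largest fall by the same criteria. These were a mean that reached 5 CPM, 1 CPM or more in each library of the lower group, and no overlap between groups. The cluster went from 88.94 and 92.06 CPM to 12.59 and 11.45 CPM, and replicates lay close together in both groups. It was 7.77-fold lower (log2 fold change -2.96, SE 0.144, adjusted p = 1.23e-06, edgeR), or 3.380 ± 0.354 TPM against 26.26 ± 1.32 TPM (SD, n = 2).

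Cluster 4375 (1 transcript, uc001mjo.2, of 2515 nt) went from 14.91 and 13.19 CPM to 2.049 and 2.615 CPM. That is 183 and 217 counts in the DMSO-named libraries and 35 and 45 in the KPT-named ones. It was 6.17-fold lower (log2 fold change -2.63, SE 0.322, adjusted p = 0.000261, edgeR). In the libraries named for the degron line the same cluster had 1 and 0 counts with DMSO and 0 and 3 with dTag. No library named for the degron line thus had more than 3 counts of it.

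These 4 clusters stood out from the next in rank only in part. After the top pair, the third largest rise by the same criteria had a log2 fold change of 3.69 and the twelfth of 2.41. The third and twelfth largest falls had 2.57 and 1.99 downward, so the falls formed a closer series than the rises.

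**Figure D3:**
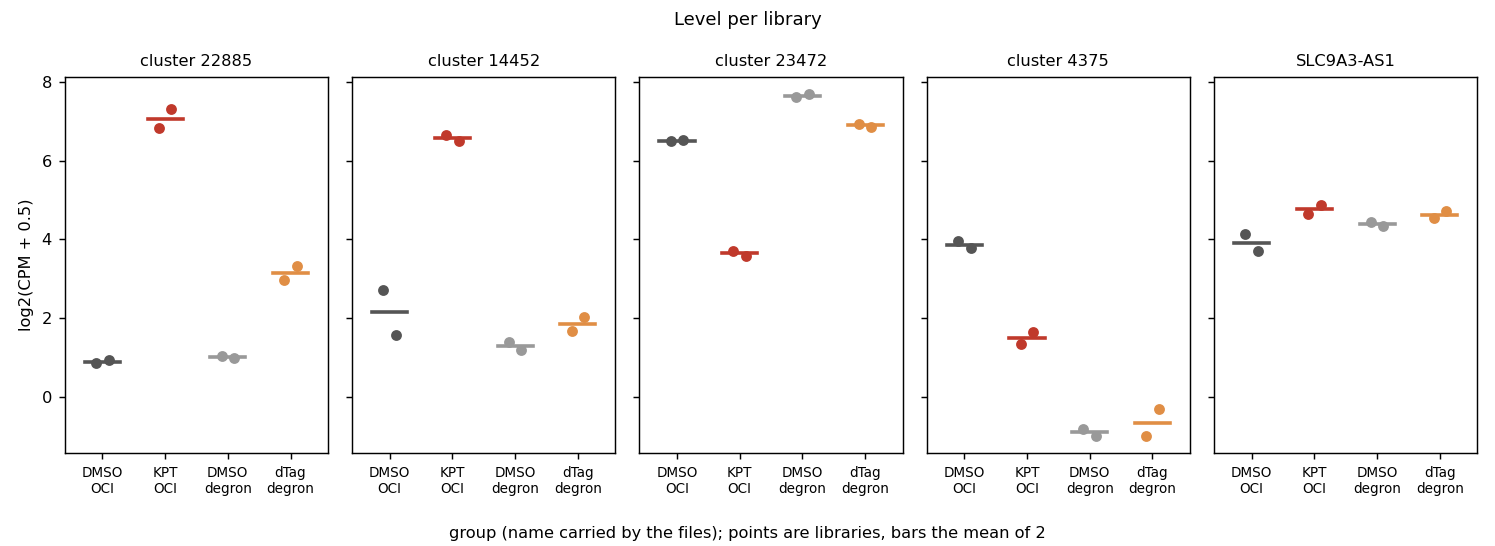
Level of the 4 named clusters and of SLC9A3-AS1 as log2(CPM + 0.5) in each human library, grouped by the name the files carry. Points are libraries and bars the mean of 2. Cluster 22885 reaches 112.5 and 158.1 CPM only in the KPT-named libraries, and cluster 4375 has at most 3 counts in any library named for the degron line.

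SLC9A3-AS1, a long non-coding RNA transcribed opposite to the gene of the sodium-proton exchanger SLC9A3, was the 1 tested cluster among the 4 that hold a matched transcript alone. The 3 matched clusters with several transcripts were not read. It matched on a UCSC identifier of another version. It was at 16.94 and 12.52 CPM in the DMSO-named libraries and at 24.59 and 28.71 CPM in the KPT-named ones. The groups did not overlap, and the difference was 1.77-fold (log2 fold change 0.82, SE 0.167, adjusted p = 0.00494, edgeR). Whether counting used strand is not given in the sources used here, so reads of the opposite gene may be included. ACTA2-AS1 had 3 and 0 counts (DMSO-named) and 3 and 5 (KPT-named), ZNF350-AS1 had 1 count in all 4 libraries together, and HNF4A-AS1 had 0, and differences were not detectable at these counts.

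The direction of change followed the level of a cluster. Of called clusters at 1 to 10 CPM, 453 were higher and 291 lower, a share of 60.9% higher. That share was 43.8% at 10 to 100 CPM and 30.4% at 100 to 1000 CPM, where 163 were higher and 374 lower. The order of these 3 classes was the same with thinned counts (62.2%, 43.7% and 31.1%), library totals (65.4%, 49.8% and 36.3%), an effective length offset (60.5%, 44.0% and 30.6%) and DESeq2 (58.7%, 42.9% and 30%). Under 1 CPM the share was 62.5% by edgeR and 16.7% by DESeq2, on 60 and 2 higher clusters. Together the higher clusters held 4.47% and 4.12% of all TPM in the DMSO-named libraries and 8% and 6.98% in the KPT-named ones. The lower clusters held 11.7% and 11% against 7.02% and 6.32%. These shares describe clusters already called and are no further test.

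Few of the clusters highest in TPM passed the test. Of the 100 clusters highest in TPM, which held 44.1% of all TPM, 5 were higher and 3 lower, or 8% of them, beside 22.9% of all clusters. Of the top 500, 26 were higher and 65 lower (18.2%). None of the top 20 passed the test, but 1 of them, 133 nt long, was listed at 0 and 6929 TPM in the DMSO-named libraries. In the KPT-named ones it was listed at 5397 and 42910 TPM (adjusted p = 0.381, edgeR). This cluster is shorter than the derived fragment lengths of the 4 libraries (234.9 to 283.1 nt), so its place in the TPM ranking is uncertain. TPM is scaled to length, and a ranking by CPM differed in part. By CPM, 13% of the 108 clusters at 1000 CPM or more were called, and 25.9% of the 2075 at 100 to 1000 CPM. The differences between these shares were not tested.

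Changed clusters were spread over all classes of length and of number of transcripts. The share called went from 16.2% of clusters under 1000 nt to 26.3% of those of 3000 to 5000 nt and 21.1% of longer ones. Among called clusters the share higher lay between 44.1% and 51.8% in every length class. With effective lengths as an offset, which takes account of fragment length, it lay between 43.0% and 53.4%. Clusters with 1 transcript were called in 20.8% of cases, those with 2 in 24.7%, those with 3 or 4 in 23.6% and those with 5 or more in 22.6%.

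**Figure D4:**
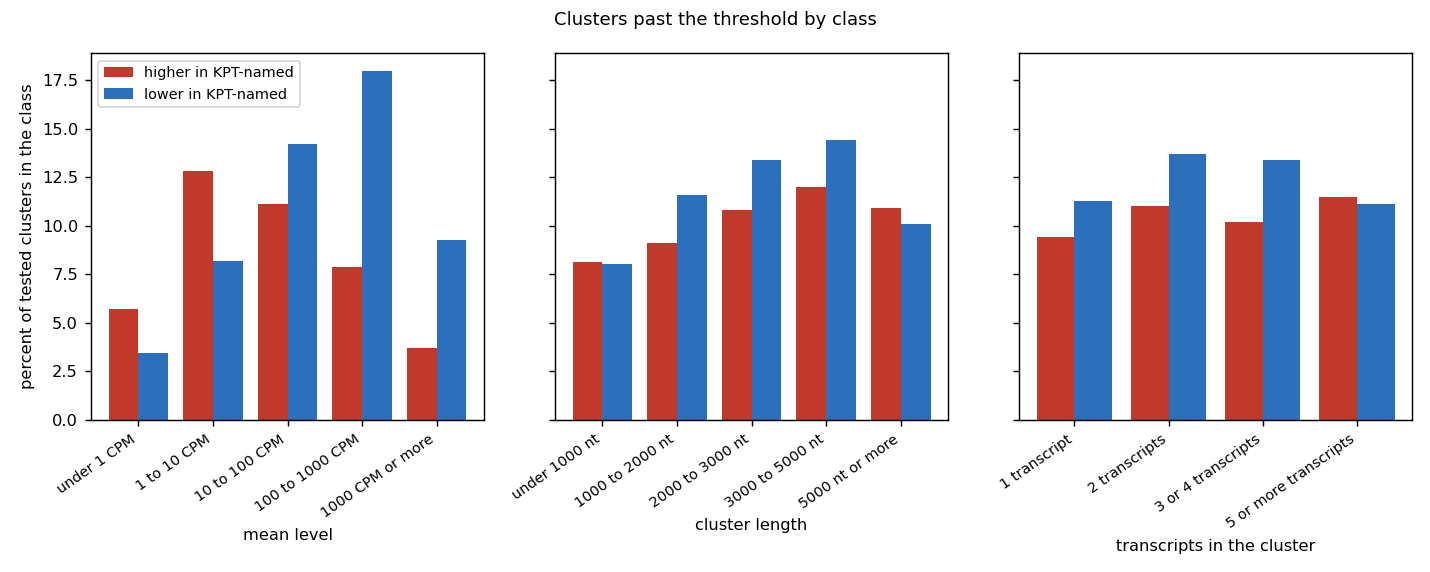
Percent of tested clusters that were higher (red) or lower (blue) in the KPT-named libraries past the threshold, by mean level over the 4 libraries, by cluster length and by number of transcripts. Higher clusters outnumber lower ones at 1 to 10 CPM (12.8% against 8.2%), and the reverse holds at 100 to 1000 CPM (7.86% against 18%).

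The deposited length of a cluster is weighted by the transcripts present, so it moves when their mix changes. In 9014 clusters with several transcripts and 50 or more counts on average, 44 (0.488%) were at least 1.2-fold longer in the KPT-named libraries without overlap, and 36 (0.399%) shorter. Between replicates of a group, differences of that size were seen in 500 clusters (KPT-named) and 258 (DMSO-named). These replicate counts carry no condition on overlap, so the 2 kinds of count cannot be set against each other, and a change in the mix of transcripts was not tested. In the libraries named for the degron line, dTag against DMSO gave 59 (0.655%) longer and 53 (0.588%) shorter.

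The nearest counterpart is the comparison of dTag with DMSO in files named for the degron line, which shares no library with this one. The records call those libraries degron2 and OCI-AML3, each with DMSO. It called 1114 clusters (8.2%), 519 higher with dTag (3.82%) and 595 lower (4.38%), and 327, 294, 256 and 373 without DMSO-named replicate 1 or 2 or dTag-named replicate 1 or 2 of that line. Of the clusters higher in the KPT-named libraries, 15.7% were also higher with dTag, which is 43.4% of the dTag list, and 1.74% were lower. Of those lower in the KPT-named libraries, 20.7% were also lower with dTag (58.5% of the dTag list) and 1.67% were higher. The median dTag-named log2 fold change was 0.32 for the first set and -0.30 for the second, against 0.02 for all clusters.

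The change differed between the 2 comparisons in 538 clusters (3.96%) by edgeR's test of the difference itself. In 240 it was more positive in the KPT-named comparison and in 298 more negative. Most were called with the KPT name alone, 146 of them higher and 194 lower. With the dTag name alone, 57 were called higher and 47 lower, and 14 were called in neither comparison. Another 28 were lower in the KPT-named and higher in the dTag-named comparison, and 25 the reverse. A further 27 were called in the same direction in both. The count fell to 262 and 187 without DMSO-named replicate 1 or 2 of the degron line, 179 without dTag-named replicate 1, 309 without dTag-named replicate 2, and 338 and 307 without DMSO-named replicate 1 or 2 of OCI-AML3. By either naming, each compound was given to 1 line, so compound and line cannot be told apart in this difference.

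Cluster 22885 was higher in both comparisons. It was at 7.287 and 9.474 CPM in the dTag-named libraries and at 1.548 and 1.471 CPM in the DMSO-named degron ones. That change was 5.35-fold (log2 fold change 2.42, SE 0.269, adjusted p = 0.000521, edgeR). Its KPT-named change was larger by 4.16 on the log2 scale (SE 0.4, adjusted p = 0.000485). Cluster 14452 did not pass with dTag (log2 fold change 0.64, SE 0.376, adjusted p = 0.339), and the difference did (3.84, SE 0.471, adjusted p = 0.0017). Cluster 23472 was lower in both, by 1.74-fold with dTag, from 194.1 and 205.0 CPM to 120.6 and 115.5 CPM (adjusted p = 0.00415). The difference of -2.16 on the log2 scale passed as well (SE 0.190, adjusted p = 0.000261). Cluster 4375 had at most 3 counts in any degron-named library, so no fold is given for dTag, and its difference did not pass (adjusted p = 0.115, and 0.0677 to 0.914 over 15 alternatives). SLC9A3-AS1 did not pass with dTag (log2 fold change 0.20, SE 0.168, adjusted p = 0.525), nor did its difference (0.63, adjusted p = 0.182).

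**Figure D5:**
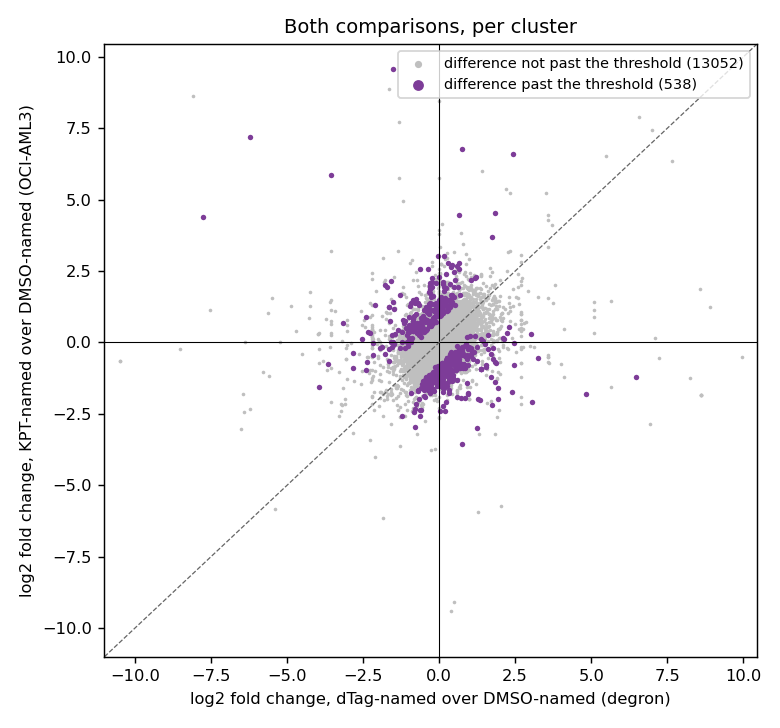
Log2 fold change per cluster in the KPT-named comparison (vertical) against the dTag-named comparison (horizontal), with purple points for the 538 clusters whose changes differ past the threshold. The dashed line marks equal change.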

How the data were processed

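Human libraries were made with Swift's rapid RNA kit from RNA purified on RNeasy micro columns, per the labels' protocols. STAR 2.6.1, RSEM, DESeq2, hg19 and mm9 are named, with no role for each, per the submitters' processing notes. The authors deposited expected counts (RSEM's estimates, not whole in 7.62% to 9.90% of clusters), TPM, and cluster lengths in nt, per the file headers. Expected counts were rounded to whole numbers, TPM was used for levels per length only, and FPKM and the mouse libraries were not used. CPM of named clusters is per library total.

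All 8 human libraries entered 1 edgeR fit with 4 groups (edgeR 4.0.16, R 4.3.3, filterByExpr, TMM, robust quasi-likelihood; common biological coefficient of variation 0.136). P-values were adjusted by Benjamini-Hochberg over the 13590 clusters tested. An SE is the log2 fold change over the square root of F. Replicates differed beyond counting noise (chi-square per degree of freedom 22.8 and 33.8), and nothing says which step separates them, so p-values measure the spread between these libraries. The script was tested on simulated data.

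The groups, lists and rules were chosen with earlier results of these data known. Named clusters were the 2 largest rises and 2 largest falls among called clusters that averaged 5 CPM or more, with no overlap and at least 1 CPM in each library of the lower group. The planned gene lists needed 80% of clusters matched to a symbol and were not analysed here. SLC9A3-AS1 and the other matched symbols, the length shifts, the thinned counts and the class tables were chosen after the data were seen.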

Additional observations from a re-analysis of the deposited data

Results flagged for a closer look

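The test of the difference itself found 538 clusters whose change differed between the KPT-named comparison in OCI-AML3 and the dTag-named comparison in the degron line. These included cluster 22885 (4.16 larger on the log2 scale in the KPT-named comparison), cluster 14452 (3.84 larger) and cluster 23472 (a difference of -2.16). Their differences passed under all 16 alternatives run. With 2 libraries a group, single libraries far from the others were not looked for.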

How the results depend on the processing

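The number of clusters that differed between KPT-named and DMSO-named libraries stayed within 1.5 times of 3115 under 13 of 14 alternatives. It was 681 when tested against a fold of 1.5, and 2087 to 2700 with 1 of the 4 libraries left out. Of the clusters called by DESeq2 (2758), 94.4% were shared, all in the same direction, and these were 83.6% of the 3115. A fit of the 4 compared libraries alone called 2424, and those it shared were 75.1% of the 3115. The 4 named clusters passed under all 14, and SLC9A3-AS1 under all but the test against a fold of 1.5 (adjusted p = 0.264). The number whose change differed between the comparisons (538) was 135 against a fold of 1.5 and 179 to 561 with a library left out, and the dTag-named count (1114) was 144 and 256 to 373. With the replicate block across the 8 libraries these 2 counts were 300 and 704 and the KPT-named count 2414, and it was 2433 with the block in the 4 libraries alone. Replicate numbers were not shown to pair the libraries: deviations of same-numbered KPT-named and DMSO-named libraries correlated at -0.035, and those of the other pairs of groups at -0.135 to 0.159. For these counts the cause was not tested, except that leaving out a library leaves fewer samples and that a fold of 1.5 is a stricter threshold. Under 1 CPM edgeR called 60 higher and 36 lower clusters at full depth, and 24 and 17 with counts thinned to the smallest library.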
